A study of Mus musculus with 23 samples.

Results

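Gm16617, Gm13609, Mir1896 and Rpl36-ps3 are 4 transcripts without a protein product among the 24704 genes measured in aortic endothelial cells that had been kept in mouse plasma. They were chosen by symbol because an earlier fit of the same values had shown them low with one pair of plasma types and high with the other, so their differences between groups are given as a description, without a test. RefSeq lists Gm16617 and Gm13609 as long non-coding RNAs, Mir1896 as a microRNA gene and Rpl36-ps3 as a pseudogene of the ribosomal protein gene Rpl36. All 4 had a value on every array, and no filter on low values was applied.

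The cells were primary mouse aorta endothelial cells from a commercial supplier, labelled C57BL/6J and grown to confluence. Their serum was replaced for 48 h by 10% plasma, and biotin-labelled cRNA was then put on 23 arrays. The plasma donors were ApoE-KO mice (5 arrays), ApoE-Stab1-KO mice (6 arrays), ApoE-Stab2-KO mice (6 arrays) or Wildtype mice (6 arrays). The 3 knockout donor groups all lacked apolipoprotein E, which lets the liver take up lipoprotein remnants. The Stab1 and Stab2 groups in addition lacked one of the scavenger receptors Stabilin-1 and Stabilin-2. Western diet for 8 weeks is given for the knockout donors. For the Wildtype donors the labels name no diet, and in a comparison with Wildtype plasma the 2 factors, genotype and diet, cannot be told apart. The genotypes belong to the donors and not to the cells, which were the same kind in every group. The labels leave out donor age, pooling of plasma and whether cultures were separate. Every p-value therefore measures the spread between these arrays only, which may be technical.

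Long non-coding RNAs are made like messenger RNAs but carry no long reading frame, and many start inside or beside a protein-coding gene. A microRNA gene is read as a long precursor with a hairpin, which is cut in the nucleus and again in the cytoplasm to a short mature strand whose seed bases pair with target messages. Processed ribosomal pseudogenes are copies of ribosomal protein messages, and their probes can also read the parent message or other copies. For the 4 transcripts named here no established function in endothelium is assumed.

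Mir1896 is the one of the 4 with a defined short product, and its hairpin is shown because the array does not say whether the primary transcript, the hairpin or the mature strand was read. In RefSeq on GRCm38.p6 the hairpin of 81 bases lies at chr13:21445160-21445240 on the plus strand, with 53.1% G and C. Bases 50 to 71 form the mature strand, in capitals.
Mir1896 hairpin: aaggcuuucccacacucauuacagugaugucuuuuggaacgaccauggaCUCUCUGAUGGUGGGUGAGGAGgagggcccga

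The mature strand follows with its seed, bases 2 to 8, in capitals. Also shown are the mature strands of 2 other microRNA genes that results here turn on: Mir126a, the microRNA gene called over the plasma groups, and Mir350, among the genes most opposite to Rpl36-ps3. They lie at chr13:21445209-21445230 (plus), chr2:26591402-26591423 (plus) and chr1:176772342-176772363 (minus). RefSeq lists a 5p strand of Mir350 as well, and the labels do not say which strand a probe set reads.
mmu-miR-1896: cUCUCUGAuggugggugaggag
mmu-miR-126a-3p: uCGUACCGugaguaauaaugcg
mmu-miR-350-3p: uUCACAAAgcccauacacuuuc
The seed UCUCUGA of miR-1896 occurred in 1 of the 1738 mature strands in the RefSeq table, its own. A mature strand was found by gene ID for 461 of the 543 microRNA genes on the array, and the seeds of the other 82 were not compared.

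Promoter windows, from 250 bases before to 50 bases after the annotated start, were listed for Gm16617 and Gm13609, whose levels followed each other over the 23 arrays (r = 0.92). Gm16617 is shown on the minus strand of chr14:51988780-51989079, with matches to the GC box in capitals.
Gm16617 promoter: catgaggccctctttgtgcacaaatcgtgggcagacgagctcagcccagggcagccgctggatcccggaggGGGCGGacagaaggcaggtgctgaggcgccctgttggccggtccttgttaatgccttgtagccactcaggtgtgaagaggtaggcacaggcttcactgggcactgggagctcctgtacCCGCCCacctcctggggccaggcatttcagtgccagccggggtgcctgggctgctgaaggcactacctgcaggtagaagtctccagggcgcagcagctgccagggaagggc
Gm13609 is shown on the minus strand of chr2:32017302-32017601, with its match to the CCAAT box in capitals.
Gm13609 promoter: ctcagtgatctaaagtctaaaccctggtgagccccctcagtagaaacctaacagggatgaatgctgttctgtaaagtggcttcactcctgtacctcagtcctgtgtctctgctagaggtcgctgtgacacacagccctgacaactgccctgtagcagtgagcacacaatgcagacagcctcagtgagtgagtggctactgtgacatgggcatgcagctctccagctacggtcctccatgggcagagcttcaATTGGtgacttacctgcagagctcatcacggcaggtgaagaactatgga
G and C made up 64.7% of the Gm16617 window and 52.7% of the Gm13609 window, against a median of 53.0% over 32544 promoters. GGGCGG, searched on both strands like every motif, matched at -179 and -61 in Gm16617 and not in Gm13609, and 35.9% of all promoters held it. CCAAT matched on the opposite strand at position 2 in Gm13609, printed as ATTGG, and not in Gm16617, and 37.4% of all promoters held it. Neither window held TATAAA (13.6% of promoters), the E-box CACGTG (7.17%), the AP-1 letters TGANTCA (7.79%), the sterol letters TCACNCCAC (1.24%), AGGAAG (35.1%) or GATAAG (7.32%). These are matches of letters only, and the windows shared none of the motifs searched.

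The deposited values are on a log2 scale after a normalization that gives every array the same distribution, so a level is relative to the other genes of its array. The values of all genes ran from 2.52 to 13.9 with a median of 4.31. Levels of different transcripts come from different probes and are not set against each other. In such bulk samples, fewer cells of a type and less RNA per cell cannot be told apart.

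Gm16617, an antisense long non-coding RNA lying wholly within Arhgef40, was lower with ApoE-KO and ApoE-Stab1-KO plasma. Its log2 level was 3.93, 3.75, 3.56, 4.10 and 3.95 on the ApoE-KO arrays. The ApoE-Stab1-KO arrays had a lowest level of 3.50, a median of 3.81 and a highest of 3.96. With ApoE-Stab2-KO plasma the lowest, median and highest were 4.36, 4.41 and 4.54, and with Wildtype plasma 4.40, 4.43 and 4.88. Every one of the 11 arrays of the first pair of groups thus lay below every one of the 12 arrays of the second pair. Group means were 3.86 ± 0.21 (SD, n = 5), 3.76 ± 0.18 (n = 6), 4.44 ± 0.07 (n = 6) and 4.54 ± 0.20 (n = 6) in the same order. The difference of ApoE-Stab2-KO minus ApoE-KO was 0.58 ± 0.10 (SE, 1.5-fold), and that of ApoE-KO minus Wildtype was -0.68 ± 0.10. Its level lay near the median of the arrays, and the files give no background level against which it could be called detected.

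Gm13609, an antisense long non-coding RNA wholly within the nucleoporin gene Nup214, had the same order of groups. On the ApoE-KO arrays its log2 level was 7.29, 7.03, 7.29, 7.61 and 7.53. The lowest, median and highest were 6.76, 7.14 and 7.48 with ApoE-Stab1-KO plasma, 7.92, 8.03 and 8.21 with ApoE-Stab2-KO plasma, and 7.87, 8.06 and 8.90 with Wildtype plasma. The 2 pairs of groups again did not overlap, with 7.61 as the highest of the low arrays and 7.87 as the lowest of the high arrays. Group means were 7.35 ± 0.23 (SD, n = 5) with ApoE-KO, 7.14 ± 0.24 (n = 6) with ApoE-Stab1-KO, 8.05 ± 0.12 (n = 6) with ApoE-Stab2-KO and 8.17 ± 0.37 (n = 6) with Wildtype plasma. ApoE-Stab2-KO minus ApoE-Stab1-KO was 0.91 ± 0.14 (SE, 1.88-fold), and ApoE-Stab1-KO minus Wildtype was -1.04 ± 0.14. The Wildtype mean rested in part on replicate 1 at 8.90, and without that array the difference of ApoE-Stab2-KO minus Wildtype went from -0.13 ± 0.14 to 0.0187.

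**Figure D1:**
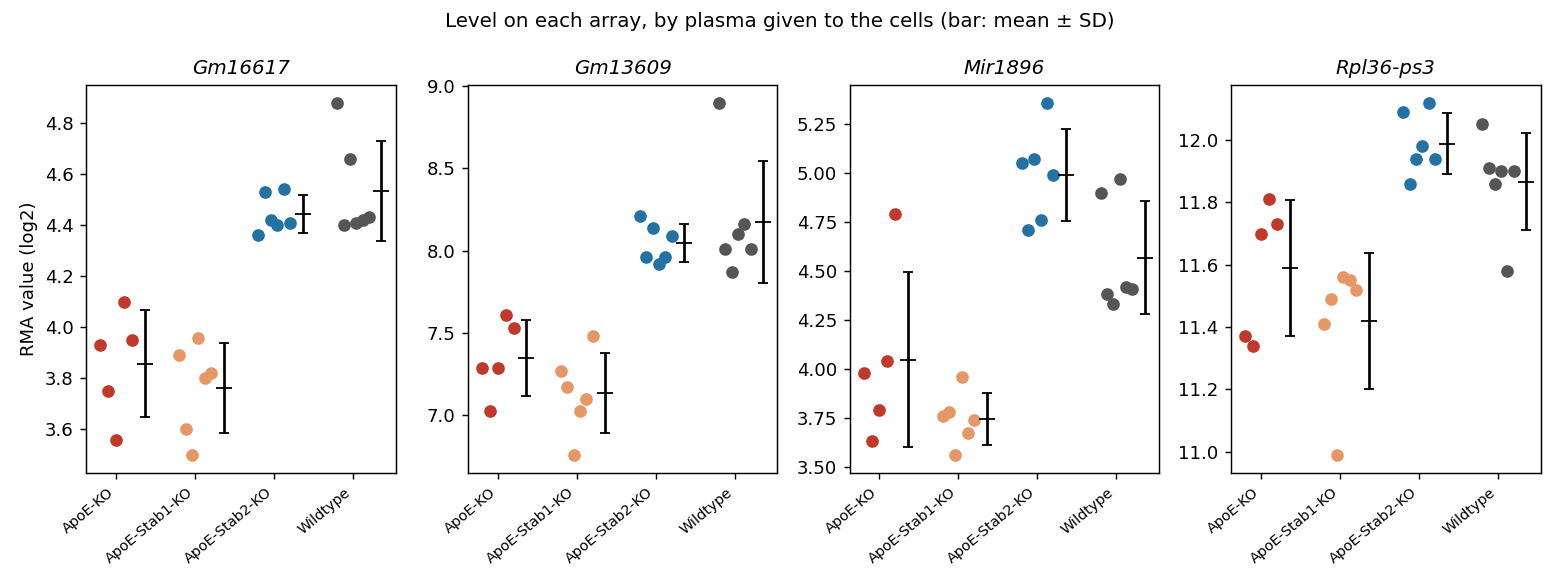
RMA level (log2, own axis for each transcript) of Gm16617, Gm13609, Mir1896 and Rpl36-ps3 on each of 23 arrays by plasma group, each point 1 array and each bar the mean with its SD. The 11 ApoE-KO and ApoE-Stab1-KO arrays lie below the 12 others for Gm16617 (up to 4.10 against 4.36 and above) and Gm13609 (up to 7.61 against 7.87 and above), and overlap them for Mir1896 and Rpl36-ps3.

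Mir1896 had the widest range of the 4 in fold between groups, and its groups overlapped. It lies on the plus strand, within the long non-coding RNA 4930470G03Rik of the same strand and the zinc finger gene Zscan26 of the opposite strand. Its log2 level on the ApoE-KO arrays was 3.98, 3.63, 3.79, 4.04 and 4.79. The lowest, median and highest were 3.56, 3.75 and 3.96 with ApoE-Stab1-KO plasma, 4.71, 5.02 and 5.36 with ApoE-Stab2-KO plasma, and 4.33, 4.41 and 4.97 with Wildtype plasma. ApoE-KO replicate 5, at 4.79, was the 1 array of the low pair of groups above the lowest array of the high pair, and 6 of the 12 high arrays lay below it. Means were 4.05 ± 0.45 (SD, n = 5), 3.74 ± 0.13 (n = 6), 4.99 ± 0.24 (n = 6) and 4.57 ± 0.29 (n = 6) with ApoE-KO, ApoE-Stab1-KO, ApoE-Stab2-KO and Wildtype plasma. ApoE-Stab2-KO minus ApoE-Stab1-KO was 1.25 ± 0.15 (SE, 2.37-fold), with no overlap of the arrays of those groups. The ApoE-KO and ApoE-Stab1-KO means lay below the median of 4.31, near the group means of the other microRNA genes (3.86 to 3.90). No background level is given, so Mir1896 cannot be called detected there and its fold values are uncertain. ApoE-Stab1-KO minus ApoE-KO was -0.30 ± 0.16 (SE), and -0.118 without ApoE-KO replicate 5.

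Rpl36-ps3, the ribosomal pseudogene, lies within the long non-coding RNA Gm40271 in RefSeq. Its log2 level was 11.37, 11.34, 11.70, 11.81 and 11.73 on the ApoE-KO arrays. With ApoE-Stab1-KO plasma the lowest, median and highest were 10.99, 11.51 and 11.56, with ApoE-Stab2-KO plasma 11.86, 11.96 and 12.12, and with Wildtype plasma 11.58, 11.90 and 12.05. Wildtype replicate 5, at 11.58, lay below 3 of the 11 low arrays, and the remaining high arrays lay above all of them. Means were 11.59 ± 0.22 (SD, n = 5), 11.42 ± 0.22 (n = 6), 11.99 ± 0.10 (n = 6) and 11.87 ± 0.16 (n = 6) in the order used above. ApoE-Stab2-KO minus ApoE-Stab1-KO was 0.56 ± 0.10 (SE, 1.48-fold), and ApoE-KO minus Wildtype was -0.28 ± 0.10.

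The order of the groups, from low to high, was ApoE-Stab1-KO, ApoE-KO, ApoE-Stab2-KO and Wildtype for Gm16617 and Gm13609. Of the neighbouring groups in that order, those that did not overlap were ApoE-KO and ApoE-Stab2-KO, with gaps of 0.58 ± 0.10 and 0.70 ± 0.14 (SE). For Mir1896 and Rpl36-ps3 the upper groups were in the opposite order, Wildtype below ApoE-Stab2-KO. All neighbouring groups overlapped for these transcripts, with gaps of 0.30 ± 0.16, 0.52 ± 0.16 and 0.42 ± 0.15 for Mir1896 and of 0.17 ± 0.10, 0.28 ± 0.10 and 0.12 ± 0.10 for Rpl36-ps3. ApoE-KO and ApoE-Stab1-KO thus overlapped for each of the 4 transcripts.

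Over all 24704 genes, 3 had every ApoE-KO and ApoE-Stab1-KO array below every array of the other groups, which is 0.0121%, and 2 of these are Gm16617 and Gm13609. Nothing is read from that count for them, since this pattern chose them. The third was Cldn5, a claudin of endothelial tight junctions, at means of 10.87 ± 0.09, 10.88 ± 0.16, 11.14 ± 0.04 and 11.13 ± 0.05 (SD). The reverse pattern was met by 1 gene, or 0.00405%: Acsl3, an enzyme that activates long-chain fatty acids. Its means were 7.63 ± 0.12, 7.56 ± 0.09, 7.36 ± 0.05 and 7.25 ± 0.18 (SD) with ApoE-KO, ApoE-Stab1-KO, ApoE-Stab2-KO and Wildtype plasma. Both genes were picked out by this pattern, so their differences are given without a test.

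No gene beside the 4 transcripts passed the test over the groups. Of the 16 nearest genes on the array, up to 2 on each side of each transcript, 0 passed the F-test (limma, adjusted p under 0.05), where 135 of all genes or 0.546% did. At an unadjusted p under 0.05, 4 of the 16 passed, beside 11.9% of all genes, and 1 passed after adjustment when ApoE-Stab1-KO replicate 1 was left out. None passed in any of the 6 pairwise comparisons either (limma), where at most 4 had an unadjusted p under 0.05. Of all genes, the shares called higher and lower were 0% and 0.00405% for ApoE-Stab1-KO minus ApoE-KO, 0.0121% and 0.0121% for ApoE-Stab2-KO minus ApoE-KO, and 0.34% and 0.19% for ApoE-KO minus Wildtype. They were 0.0364% and 0.0121% for ApoE-Stab2-KO minus ApoE-Stab1-KO, 0.174% and 0.19% for ApoE-Stab1-KO minus Wildtype, and 0.113% and 0.0648% for ApoE-Stab2-KO minus Wildtype. The median difference of the 16 neighbours was 0.0114 for ApoE-Stab2-KO minus ApoE-Stab1-KO, within a range of -0.24 to 0.20. For ApoE-KO minus Wildtype it was 0.0017, within a range of -0.34 to 0.22.

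Arhgef40, which holds Gm16617 on its opposite strand, differed by 0.00 ± 0.06 (SE) between ApoE-Stab2-KO and ApoE-Stab1-KO plasma (adjusted p = 0.988 by limma). For ApoE-KO minus Wildtype it was -0.16 ± 0.06 (adjusted p = 0.302). Tmem253, the outer neighbour on the other side, had means of 3.79, 3.83, 4.02 and 4.13 in the order ApoE-KO, ApoE-Stab1-KO, ApoE-Stab2-KO and Wildtype. Its difference of -0.34 ± 0.08 for ApoE-KO minus Wildtype missed the threshold (adjusted p = 0.0612), as did its F-test (0.0794).

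Nup214, a protein of the nuclear pore that holds Gm13609 on its opposite strand, had means of 8.74, 8.78, 8.68 and 8.74 (F-test adjusted p = 0.649 by limma). For ApoE-Stab2-KO minus ApoE-Stab1-KO it was -0.10 ± 0.05 (SE), where Gm13609 was at 0.91 ± 0.14. The next genes on the other side were Fam78a and Plpp7, the latter at -0.24 ± 0.06 in that comparison (adjusted p = 0.131).

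Zscan26, a zinc finger gene over Mir1896, had means of 7.62, 7.64, 7.68 and 7.55 (F-test adjusted p = 0.871 by limma), and its ApoE-Stab2-KO minus ApoE-Stab1-KO difference was 0.04 ± 0.10 (SE). Beside Rpl36-ps3, the transcription factor gene Mycn did not pass (F-test adjusted p = 0.735), nor did 4921511I17Rik with means of 3.80, 3.84, 4.02 and 3.99 (0.284). The overlapping long non-coding RNAs 4930470G03Rik and Gm40271 were not among the genes measured, so they have no value here. The labels do not say which strand the probes read, so signal of a transcript and of its antisense partner cannot be told apart by annotation.

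**Figure D2:**
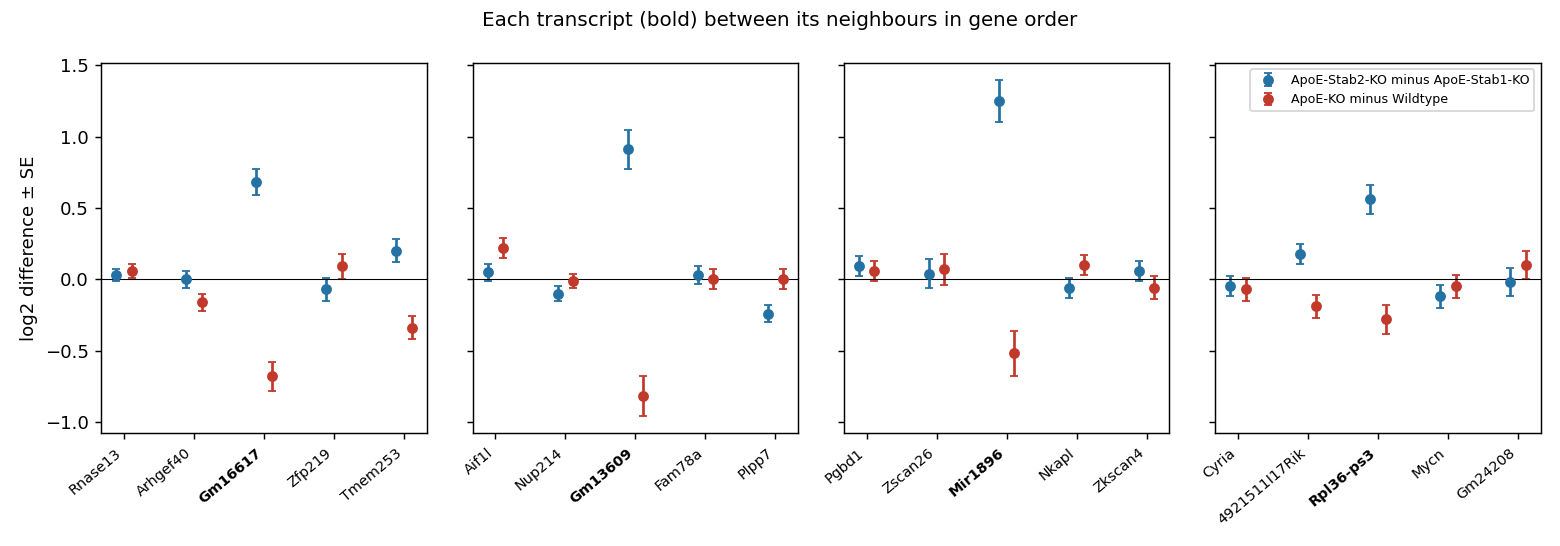
Log2 differences with their standard errors (vertical axis) for ApoE-Stab2-KO minus ApoE-Stab1-KO (blue) and ApoE-KO minus Wildtype (red), for each of the 4 transcripts (bold) and up to 2 array genes on each side in RefSeq gene order. The transcripts, which were chosen for their group differences, reach 0.56 to 1.25 in blue, while their 16 neighbours stay between -0.24 and 0.20. In red the ranges overlap, at -0.82 to -0.28 for the transcripts and -0.34 (Tmem253) to 0.22 for the neighbours.

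One other pseudogene of the Rpl36 family was on the array by name, Rpl36-ps12, and Rpl36 itself was not among the genes measured. Rpl36-ps12 had means of 7.28 ± 0.37, 7.19 ± 0.09, 7.49 ± 0.17 and 7.38 ± 0.21 (SD) in the order used above. It did not pass the F-test (limma, adjusted p = 0.515), nor ApoE-Stab2-KO minus ApoE-Stab1-KO at 0.31 ± 0.12 (SE, adjusted p = 0.346). Over the 23 arrays it correlated with Rpl36-ps3 at r = 0.73, which placed it at rank 57 among all genes. Near-identical copies can share probes, so the values of Rpl36-ps3 are uncertain as to which copy they read.

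Inside the plasma groups, apart from the group differences by which the 4 transcripts were chosen, arrays high in one tended to be high in another. The deviation of each array from its group mean was correlated over 23 arrays, with p-values from 100000 permutations within groups (two-sided) and Benjamini-Hochberg adjustment over the 6 pairs. All 6 Pearson correlations were positive, from 0.41 to 0.57, and 4 passed. They were Gm16617 with Gm13609 (r = 0.57, permutation p = 0.0224, adjusted 0.0336) and Gm13609 with Rpl36-ps3 (r = 0.56, permutation p = 0.0171, adjusted 0.0336). Gm13609 with Mir1896 (r = 0.51, permutation p = 0.0144, adjusted 0.0336) and Mir1896 with Rpl36-ps3 (r = 0.50, permutation p = 0.021, adjusted 0.0336) passed as well. Gm16617 with Mir1896 (r = 0.41, permutation p = 0.111, adjusted 0.111) and with Rpl36-ps3 (r = 0.45, permutation p = 0.0692, adjusted 0.0831) did not. No share over other pairs of genes stands beside this count. Whether 4 of 6 is more than usual on these arrays was not tested.

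These correlations rested on few arrays. By Spearman's rho, 1 of the 6 passed, Gm13609 with Mir1896 (rho = 0.59, permutation p = 0.00393, adjusted 0.0236), and Gm16617 with Gm13609 had rho = 0.38 (permutation p = 0.107, adjusted 0.108). The Spearman coefficient was 0.36 for Gm16617 with Mir1896, 0.43 for Gm16617 with Rpl36-ps3, 0.46 for Gm13609 with Rpl36-ps3 and 0.49 for Mir1896 with Rpl36-ps3, with adjusted permutation p-values of 0.108, 0.0988, 0.0876 and 0.0792. Each pair was also taken without the 2 arrays where the second-named transcript deviated farthest from its median. Outlying arrays of the first-named transcript could stay in. Then r was 0.33 for Gm16617 with Gm13609 (adjusted permutation p = 0.329) and 0.52 for Mir1896 with Rpl36-ps3 (0.104), so these did not hold. It was 0.64 for Gm13609 with Mir1896 (adjusted permutation p = 0.0226) and 0.51 for Gm13609 with Rpl36-ps3 (0.0289). Wildtype replicate 1, where Gm13609 deviated most (0.72), stayed in for both of these Gm13609 pairs. The same step gave 0.59 for Gm16617 with Mir1896 (adjusted permutation p = 0.0226) and 0.25 for Gm16617 with Rpl36-ps3 (0.42).

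No pair passed without ApoE-KO replicate 2, without ApoE-Stab1-KO replicate 3 or without Wildtype replicate 1, and 2 pairs passed without ApoE-KO replicate 4. All 4 transcripts lay above their group mean on 2 arrays, ApoE-KO replicate 5 and Wildtype replicate 1. All 4 lay below it on 4 arrays, which were ApoE-KO replicate 2, ApoE-Stab1-KO replicate 3, ApoE-Stab2-KO replicate 4 and Wildtype replicate 5. Within single groups of 6 arrays, Mir1896 and Rpl36-ps3 correlated at 0.71 with ApoE-Stab1-KO, 0.76 with ApoE-Stab2-KO and 0.46 with Wildtype plasma. Gm16617 and Gm13609 correlated at 0.50, -0.65 and 0.73 in the same groups, so their sign was not the same in all.

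**Figure D3:**
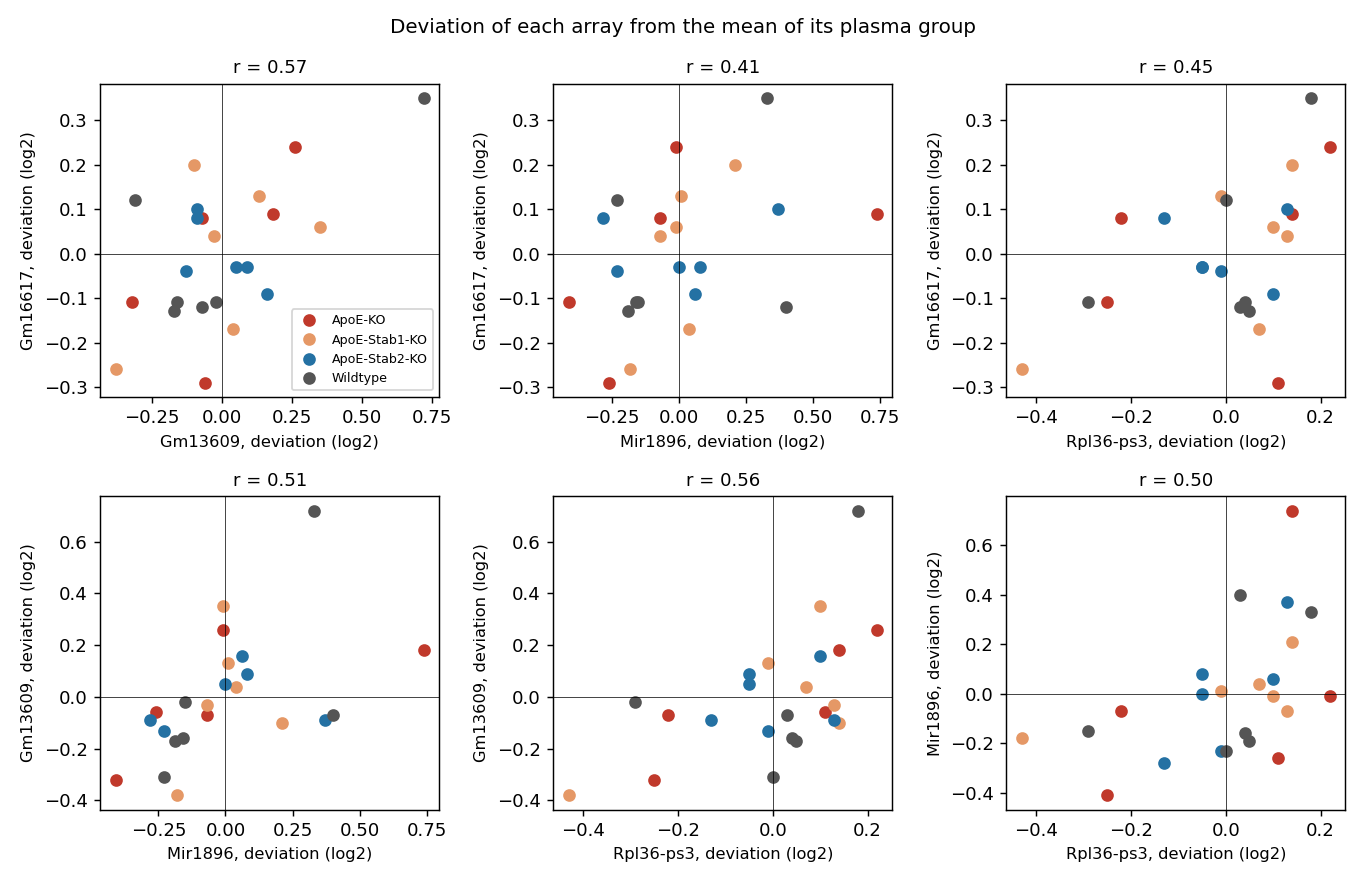
Deviation of each array from its group mean (log2, both axes) for the 6 pairs of transcripts, each point 1 of 23 arrays coloured by plasma group. Pearson r over each panel runs from 0.41 to 0.57, and single arrays such as Wildtype replicate 1 at the top right lie far from the rest.

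Measures that could differ between arrays were set beside the transcripts. They were the spread of each array around the level of each gene, as an interquartile range, and the mean level of 7 gene lists or name classes. The interquartile range was 0.142 ± 0.011 (SD) with ApoE-KO, 0.168 ± 0.031 with ApoE-Stab1-KO, 0.141 ± 0.01 with ApoE-Stab2-KO and 0.145 ± 0.019 with Wildtype plasma. Mean small nucleolar RNA level was 7.58 ± 0.22, 7.44 ± 0.13, 7.57 ± 0.20 and 7.64 ± 0.08 (SD), with overlapping arrays, and mean cholesterol synthesis level was 8.27 ± 0.06, 8.07 ± 0.05, 8.09 ± 0.03 and 7.87 ± 0.06. Within groups, 0 of the 32 correlations of a transcript with a measure passed after adjustment, and 2 had an unadjusted permutation p under 0.05. These were Gm16617 with the ribosomal pseudogene mean (r = -0.51, permutation p = 0.0363, adjusted 0.493) and Rpl36-ps3 with the cholesterol synthesis mean (r = -0.50, permutation p = 0.0388, adjusted 0.493). All 4 transcripts had a negative r with the cholesterol synthesis mean, at -0.26 for Gm16617, -0.40 for Gm13609, -0.26 for Mir1896 and -0.50 for Rpl36-ps3. With single arrays left out, that of Mir1896 ran from -0.39 to 0.05, while those of the other transcripts stayed negative. The part of these measures in the group differences was not tested.

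The labelled cell type was checked against marker genes. All 13 endothelial markers lay above the array median, with list means of 10.84 to 11.02 with ApoE-KO, 10.86 to 11.02 with ApoE-Stab1-KO, 10.96 to 11.05 with ApoE-Stab2-KO and 10.98 to 11.05 with Wildtype plasma. Cdh5, the cadherin of endothelial junctions, was at 12.60 to 12.87. Cldn5 is a member of this list and also one of the genes separating the groups. Among markers of other cells, 2 of 6 smooth muscle, 2 of 7 fibroblast, 1 of 7 macrophage, 3 of 7 red cell and platelet and 2 of 7 liver genes lay above that median. The mean of each of these lists stayed between 3.90 and 4.68 on all arrays. Over all arrays Myh11 (4.07), Dcn (3.01), Ptprc (2.98), Hbb-bs (2.98) and Alb (3.16) had means below the median of 4.31. Above it were the macrophage marker Cd68 (11.17), Pdgfra (6.11), Col1a1 (5.14), Acta2 (5.06), Des (5.16), Gp9 (6.32), Pf4 (6.01), Itga2b (4.79), Apoa2 (5.25) and Trf (5.13). Of 4 lymphatic markers 3 lay above it, with Lyve1 at 12.75 and Prox1, the regulator of lymphatic identity, at 3.27. The part of other cells in the levels was not tested.

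For each transcript the 5 genes most like it and the 5 most opposite over the 23 arrays were taken. This likeness is a Pearson correlation over arrays that share the group pattern and 1 normalization, and it is given without a test. Nearest to Gm16617 were Gm13609 (r = 0.92), Gm15441 (0.91), Cldn5 (0.87), A030001D20Rik (0.86) and Gm11651 (0.85). Of these, Gm15441 and Gm11651 also had the highest correlations of deviations inside groups, at 0.83 and 0.81. Gm15441 had means of 5.71 ± 0.35, 5.78 ± 0.27, 6.31 ± 0.04 and 6.29 ± 0.18 (SD) in the order ApoE-KO, ApoE-Stab1-KO, ApoE-Stab2-KO and Wildtype.

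Nearest to Gm13609 after Gm16617 were A030001D20Rik (0.90), the vomeronasal receptor gene Vmn1r127 (0.88), the RNA-binding protein gene Pcbp1 (0.87) and 9230105E05Rik (0.86). Nearest to Mir1896 were Rpl36-ps3 (0.85), Gm13609 (0.82), Gm16617 (0.81), 2610020C07Rik (0.81) and the mitochondrial import gene Tomm6 (0.80). Nearest to Rpl36-ps3 were the pseudogene Gm5614 (0.86), the small nucleolar RNA Snord68 (0.85), Mir1896 (0.85), A030001D20Rik (0.84) and Gm13609 (0.84). A030001D20Rik, a long non-coding RNA, stood among the nearest 5 of Gm16617, Gm13609 and Rpl36-ps3. Its means were 6.06 ± 0.27, 5.86 ± 0.36, 6.45 ± 0.12 and 6.58 ± 0.23 (SD).

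With the 4 transcripts themselves left out and each gene counted once, 4 of the 11 genes most alike were protein-coding and 16 of the 18 most opposite (88.9%), beside 79.7% of all genes. Opposite to Gm13609 were Babam2, a subunit of a DNA repair complex (r = -0.90), the T cell costimulator gene Cd80 (-0.86), the antigen-presenting gene Mr1 (-0.85), Tm9sf3 (-0.85) and Chordc1 (-0.82). Opposite to Rpl36-ps3 were the calmodulin gene Calm2 (-0.88), the kinase gene Nek7 (-0.81), the chaperonin subunit gene Cct6a (-0.81), Ppbp (-0.80) and Mir350 (-0.80). Opposite to Gm16617 were Tm9sf3 (-0.83), Calu (-0.83), Cct6a (-0.81), Uba3 (-0.81) and the integrin gene Itgav (-0.80). Opposite to Mir1896 were Dph6 (-0.83), A230072E10Rik (-0.81), the hexokinase gene Hk1 (-0.79), Ror1 (-0.79) and Usp29 (-0.78). Babam2, at -0.90, had means of 9.73 ± 0.05, 9.75 ± 0.04, 9.64 ± 0.04 and 9.62 ± 0.04 (SD). A230072E10Rik, a long non-coding RNA, had 3.67 ± 0.14, 3.80 ± 0.10, 3.49 ± 0.07 and 3.58 ± 0.06 (SD), and its ApoE-Stab2-KO minus ApoE-Stab1-KO difference was -0.31 ± 0.06 (SE). That of Mr1 was -0.25 ± 0.05 and that of Cd80 -0.17 ± 0.04.

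**Figure D4:**
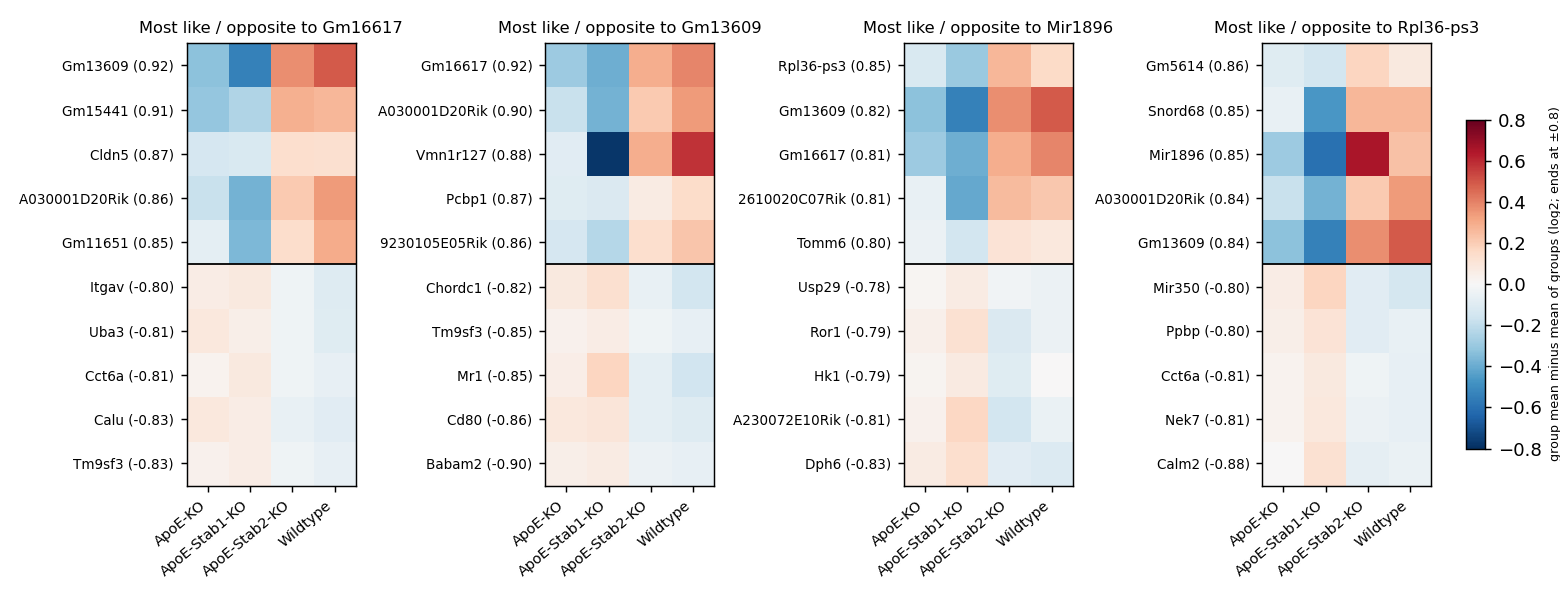
Group mean minus the mean of the 4 groups (log2, colour) for the 5 genes most like (upper rows) and most opposite to (lower rows) each transcript, with Pearson r over 23 arrays in brackets and the plasma groups as columns. The upper rows are low in ApoE-KO and ApoE-Stab1-KO and high in the other groups. Most lower rows show the reverse, as for Babam2 from 9.75 to 9.62. Hk1 with Wildtype plasma (9.80) and Calm2 with ApoE-KO plasma (11.55) lie near the mean of their groups instead.

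Of the 542 other microRNA genes, 1 passed the F-test (limma), beside 0.546% of all genes. At an unadjusted p under 0.05 there were 60 (11.1%), near the 11.9% of all genes. The gene was Mir126a, known for its part in endothelial growth factor signalling and vessel integrity and lying within the endothelial gene Egfl7. Its means were 7.28 ± 0.26 (SD, n = 5) with ApoE-KO, 7.43 ± 0.26 with ApoE-Stab1-KO, 7.78 ± 0.15 with ApoE-Stab2-KO and 7.93 ± 0.18 with Wildtype plasma (n = 6 each; F-test adjusted p = 0.0153 by limma). The ApoE-KO arrays ran from 6.98 to 7.60 and the Wildtype arrays from 7.73 to 8.16, without overlap. In ApoE-KO minus Wildtype, where 0.19% of all genes were called lower, 2 microRNA genes fell: Mir126a by 0.65 ± 0.12 (SE, limma adjusted p = 0.00884) and Mir1962 by 0.43 ± 0.09 (0.0402). The call of Mir126a held without each array in turn, while that of Mir1962 held in 9 of 23 such fits and was weakest without ApoE-KO replicate 2 (adjusted p = 0.144). Egfl7, around Mir126a, fell in the same comparison by 0.27 ± 0.04 (SE, limma adjusted p = 0.00136). The median difference of the 542 genes was within 0.02 of 0 in each of the 6 comparisons.

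Of the 14 genes that make or load microRNAs, such as Drosha and Dicer1, 0 passed the F-test (limma), with 1 at an unadjusted p under 0.05, and 1 passed without ApoE-Stab1-KO replicate 6. Of 20 measured genes of the RNA exosome and RNA decay, 0 passed, with 3 at an unadjusted p under 0.05. Over all genes the shares were 0.546% by the F-test and 11.9% at an unadjusted p under 0.05.

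Small nucleolar RNAs, which guide the modification of ribosomal RNA, held 4 genes past the F-test out of 107 (limma), where 0.546% of all genes passed, and 34 at an unadjusted p under 0.05 (31.8%, beside 11.9% of all genes). They were Snord68 (adjusted p = 0.00816), Snord47 (0.0179), Snord14e (0.0184) and Snord45b (0.0258). The call of Snord14e ended without Wildtype replicate 1 (0.0508) or 5 (0.0504), and that of Snord45b without ApoE-KO replicate 2, 3 or 5 or Wildtype replicate 2, 4 or 5 (adjusted p = 0.0553 to 0.0648 by limma). Snord68 had means of 9.37 ± 0.21, 8.96 ± 0.29, 9.69 ± 0.18 and 9.69 ± 0.24 (SD) in the order used above, and Snord47 had 11.30 ± 0.17, 11.08 ± 0.20, 11.49 ± 0.11 and 11.56 ± 0.13. Snord68 was the 1 small nucleolar RNA that rose in ApoE-Stab2-KO minus ApoE-Stab1-KO (0.74 ± 0.13 SE, limma adjusted p = 0.0168), where 0.0364% of all genes did. That call ended without ApoE-Stab1-KO replicate 3 (adjusted p = 0.0642). In ApoE-Stab1-KO minus Wildtype, where 0.19% of all genes fell, 5 small nucleolar RNAs fell: Snord68, Snord47, Snora7a, Snord14a and Snord14e, by 0.46 to 0.73 on the log2 scale. The call of Snord14a ended without ApoE-Stab1-KO replicate 3, 5 or 6 or Wildtype replicate 2, 4 or 6 (limma adjusted p = 0.0532 to 0.0706), and that of Snora7a without ApoE-Stab1-KO replicate 3 (0.0618) or Wildtype replicate 2 (0.0532). The median difference of the class there was -0.191, against 0.00366 over all genes. In ApoE-KO minus Wildtype the median was -0.0478, and Snord45b and Snord14e fell, the latter not without ApoE-KO replicate 2 (limma adjusted p = 0.0712). The number past the F-test was 8 without ApoE-Stab1-KO replicate 4, 7 without ApoE-Stab2-KO replicate 1 and 2 without Wildtype replicate 5. Group means were lower in both ApoE-KO and ApoE-Stab1-KO than in both other groups for 36 of 106 genes that RefSeq lists as small nucleolar RNAs (34.0%), against 18.8% of all genes.

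Ribosomal pseudogenes other than Rpl36-ps3 numbered 38, and 0 passed the F-test (limma), where 0.546% of all genes did. At an unadjusted p under 0.05 there were 9 (23.7%, beside 11.9% of all genes), and 1 passed after adjustment without ApoE-Stab1-KO replicate 1. The median difference of these 38 was -0.112 for ApoE-Stab1-KO minus ApoE-KO, 0.097 for ApoE-Stab2-KO minus ApoE-Stab1-KO and 0.0281 for ApoE-KO minus Wildtype. Rpl36-ps3 stood at -0.17, 0.56 and -0.28. Ribosomal protein genes, the parents of such copies, numbered 70. Of these 0 passed the F-test (limma) and 4 were at an unadjusted p under 0.05, beside 0.546% and 11.9% of all genes. Long non-coding RNAs other than Gm16617 and Gm13609 numbered 3053 in RefSeq terms. Of them 12 passed the F-test (limma), or 0.393%, beside 0.546% of all genes. Of those 12, 7 had lower means with both ApoE-KO and ApoE-Stab1-KO plasma and 2 had higher ones. Among protein-coding genes past the test, 19 were lower and 27 higher in that sense.

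Of 19 measured genes of cholesterol synthesis, which respond to the sterol supply of the cell, 12 rose in ApoE-KO minus Wildtype (limma, adjusted p under 0.05), with a median of 0.445, where 0.34% of all genes were called higher. In ApoE-Stab2-KO minus ApoE-Stab1-KO, the comparison with the widest gap for Mir1896 and Rpl36-ps3, 0 of 19 passed, 2 had an unadjusted p under 0.05 and the median was 0.0173. Lss had means of 7.79, 7.57, 7.45 and 7.09 and Hmgcs1 of 9.89, 9.58, 9.55 and 9.36 with ApoE-KO, ApoE-Stab1-KO, ApoE-Stab2-KO and Wildtype plasma. By means alone both were higher with the first pair of plasma types. ApoE-Stab2-KO minus ApoE-Stab1-KO was -0.12 ± 0.07 (SE, limma adjusted p = 0.536) for Lss and -0.03 ± 0.05 (0.893) for Hmgcs1, so neither was called there. Msmo1 (10.24, 9.91, 9.93 and 9.55) and Cyp51 (8.51, 8.20, 8.27 and 7.83) were not higher with ApoE-Stab1-KO than with ApoE-Stab2-KO plasma. Nor was the mean of the list, at 8.07 and 8.09 in those groups. Whether the list and the 4 transcripts differ in their grouping was not tested. Of 17 immediate early genes 1 passed the F-test, Nr4a1 (limma adjusted p = 0.0271). It did not pass without any 1 of Wildtype replicates 1, 2, 3, 4 and 6 (0.0535 to 0.0879). At an unadjusted p under 0.05 there were 7 of the 17, beside 11.9% of all genes. Jun rose in ApoE-KO minus Wildtype by 0.27 ± 0.06 (SE, limma adjusted p = 0.042), where 0.34% of all genes were called higher. Nr4a1 fell in ApoE-Stab1-KO minus Wildtype by 0.35 ± 0.06 (SE, limma adjusted p = 0.013), where 0.19% of all genes were called lower. Of 12 heat shock genes 0 passed the F-test (limma), with 4 at an unadjusted p under 0.05, beside 0.546% and 11.9% of all genes.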

How the data were processed

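The deposited log2 values came from 1 table of 25428 probe sets on 23 arrays. They were made by the authors with RMA, per the submitters' processing notes (no version named there). Of the probe sets 24705 had 1 gene symbol and 723 had none, and the brighter of repeated symbols was kept, leaving 24704 genes. Groups came from the donor genotype in the labels. Differences, standard errors and the F-test came from limma 3.58.1 in R 4.3.3 (lmFit, eBayes without trend, 1 mean per group, 19 residual degrees of freedom), adjusted by Benjamini-Hochberg over all genes, with calls at an adjusted p under 0.05. The fit was tested on simulated data. The median standard error of a difference was 0.068, and arrays correlated at 0.9921 to 0.9974, so none was a copy of another; the number of arrays limits the precision. Permutations used numpy 2.4.6 in Python 3.11.15 and figures matplotlib 3.10.9.

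The 4 transcripts and all lists were chosen with earlier results of these data known. Named were the transcripts, other Rpl36 probe sets, up to 2 array genes on each side, the 5 most alike and 5 most opposite genes, up to 4 genes per list, microRNAs sharing the seed and genes separating the groups. Egfl7, Mir1962, Snora7a and Snord14a were in part named after their values were seen. Sequences and gene order are from RefSeq GRCm38.p6; the labels name no build for the array. Alternatives were centring, repeated quantile normalization, a filter on dim genes, trend and robust eBayes, the replicate number as a block, single probe sets, only the compared arrays, and each array left out.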

Additional observations from a re-analysis of the deposited data

Results flagged for a closer look

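For 48 sets of values, each from 1 group of 5 or 6 arrays, the distance of the highest or lowest array to the nearest other was set against the range of its group, and 5 exceeded Dixon's 95% critical value. Chance alone gives about 1 such set in 20. Gm13609 was 8.90 on Wildtype replicate 1, above the 5 other Wildtype arrays. Rpl36-ps3 was 10.99 on ApoE-Stab1-KO replicate 3, below the other arrays of its group. The interquartile range of ApoE-KO replicate 3 was 0.16, above that of the other ApoE-KO arrays. The mean of the ribosomal pseudogenes was 6.95 on ApoE-Stab2-KO replicate 5, above its group, and the mean of the immediate early genes was 7.74 on Wildtype replicate 3. ApoE-Stab1-KO replicate 3 and Wildtype replicate 1 were also among the arrays without which no pair of transcripts passed the within-group correlation test.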

How the results depend on the processing

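Under the alternatives run, no difference of a transcript between groups moved by as much as the residual SD of its fit (0.17 for Gm16617, 0.26 for Gm13609, 0.29 for Mir1896 and 0.18 for Rpl36-ps3), and each kept its direction except Gm13609 for ApoE-Stab2-KO minus Wildtype, which ran from -0.187 to 0.0187 as single arrays were left out. Gm16617 lies below the median level, so the filter on dim genes gave it no value. Main counts of called genes were 135 (F-test), 1 (ApoE-Stab1-KO minus ApoE-KO), 6 (ApoE-Stab2-KO minus ApoE-KO), 131 (ApoE-KO minus Wildtype), 12 (ApoE-Stab2-KO minus ApoE-Stab1-KO), 90 (ApoE-Stab1-KO minus Wildtype) and 44 (ApoE-Stab2-KO minus Wildtype). With single arrays left out they ran over 87 to 197, 0 to 2, 0 to 12, 55 to 158, 8 to 37, 54 to 124 and 20 to 55. Among genes above the median level, ApoE-Stab2-KO minus ApoE-KO had 2 and ApoE-Stab1-KO minus Wildtype 151. Trend and robust settings gave 2 for ApoE-Stab1-KO minus ApoE-KO and 21 for ApoE-Stab2-KO minus ApoE-Stab1-KO. From only the arrays compared, the counts were 0, 1, 80, 4 and 21 for ApoE-Stab1-KO minus ApoE-KO, ApoE-Stab2-KO minus ApoE-KO, ApoE-KO minus Wildtype, ApoE-Stab2-KO minus ApoE-Stab1-KO and ApoE-Stab1-KO minus Wildtype. The cause was not tested. Same-numbered arrays deviated together at r = -0.096 to 0.11, with a median of 0.012 against -0.0031 for different numbers. Of the 23 arrays 6 had their best partner under their own number. The labels do not say whether the numbers pair the samples, and such weak correlations cannot decide it. The replicate block gave 88 (F-test), 0 for both ApoE-Stab1-KO and ApoE-Stab2-KO minus ApoE-KO, 0 pairs of transcripts and 1 of the 32 correlations with measures. Under the block r was 0.44 for Gm16617 with Gm13609, 0.47 and 0.58 for Gm13609 with Mir1896 and Rpl36-ps3, and 0.44 for Mir1896 with Rpl36-ps3. Spearman's rho was 0.38, 0.46 and 0.49 for Gm16617 with Gm13609, Gm13609 with Rpl36-ps3 and Mir1896 with Rpl36-ps3, with 1 pair past the threshold. Without the 2 arrays outermost for the second-named transcript, r was 0.33, 0.59 and 0.52 for Gm16617 with Gm13609, Gm16617 with Mir1896 and Mir1896 with Rpl36-ps3. With single arrays left out, 0 to 5 pairs passed, and r ran over 0.33 to 0.66 (Gm16617 with Gm13609), 0.31 to 0.51 (with Mir1896), 0.30 to 0.59 (with Rpl36-ps3), 0.45 to 0.57 (Gm13609 with Mir1896), 0.45 to 0.60 (with Rpl36-ps3) and 0.42 to 0.56 (Mir1896 with Rpl36-ps3).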
